A study of Homo sapiens with 6 samples.

Results

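The 78 protein-coding genes for mitochondrial ribosomal proteins were read across RNA libraries of the established line Ovcar8, which was derived from a human high-grade serous carcinoma of the ovary. They were the protein-coding rows of the deposited count table whose symbol begins with MRPS (29 genes, named for the small subunit) or MRPL (49 genes, named for the large subunit) followed by a digit, out of 58735 genes in all. Serum-starved cells had been without serum for 48 h, and the cells they were set against had spent the same 48 h with 5% fetal bovine serum (FBS), a source of growth factors and lipids. All cells had been grown in RPMI-1640 medium. There were 3 libraries per group, all of this single line. Whether the 3 libraries of a group are separate cultures is not in the labels; the p-values reflect only how far these libraries spread, which may be technical.

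Mitochondria translate the few proteins encoded in their own genome, all of them subunits of the respiratory chain and ATP synthase, on a ribosome of their own. Its rRNAs are transcribed inside the organelle, while all of its proteins are encoded in the nucleus, made in the cytosol and imported. Many of these proteins descend from bacterial ribosomal proteins, and the others were gained in the mitochondrial lineage. The small subunit reads the mRNA, and the large subunit joins amino acids and holds the exit tunnel, which faces the inner membrane. A few symbols do not match the place of the protein: MRPS18A and MRPS30 sit in the large subunit, and MRPS36 is a component of the oxoglutarate dehydrogenase complex.

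The libraries held 16379416 to 19558484 counts assigned to genes. Levels are given as CPM, counts relative to the library total after TMM scaling, and replicates are given in the order 1, 2 and 3. Of 10 markers of ovarian carcinoma and epithelium, PAX8 was at 81.9, 86.1 and 68.2 CPM in serum-starved cells and 60.9, 72.7 and 59.4 CPM in cells with FBS, KRT8, KRT18, KRT7 and MSLN were also well above 10 CPM in every library, WT1, EPCAM and CDH1 stood below 4 CPM, and MUC16 and SOX17 had 0 counts. Of the 8 that could be tested, 4 had a log2 fold change below 0 and 0 passed in edgeR (0 at an unadjusted p under 0.05) or in DESeq2. Of 13 markers of leukocytes, endothelium, fibroblasts, blood and liver, 4 had 0 counts in every library, and their summed level of 767 to 835 CPM in serum-starved cells and 320.1 to 581 CPM in cells with FBS was almost wholly COL1A1. COL1A1 had a log2 fold change of 0.70 ± 0.32 SE (edgeR adjusted p = 0.457), with all serum-starved libraries above the others. Of the 3 that could be tested, 2 (COL1A1 and VWF) had an unadjusted edgeR p under 0.05 above 0, where 6.01% of all genes did. VWF, an endothelial marker, stood at 4.21, 1.32 and 2.64 CPM in serum-starved cells, against 0.305, 0.477 and 0.26 CPM in cells with FBS, with all serum-starved libraries above the others (log2 fold change 2.94 ± 0.73 SE, with an edgeR adjusted p = 0.134), and passed in DESeq2 (adjusted p = 0.0153). The part of these markers in the results was not tested.

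Mitochondrial ribosomal protein mRNAs stood mostly at lower levels in serum-starved than in FBS libraries, by small amounts, and no single gene passed the test. A log2 fold change (serum-starved over FBS) below 0 was fitted for 26 of 29 small-subunit genes and 42 of 49 large-subunit genes, 87.2% of all members, against 51.5% of the 13772 genes tested. The median was -0.33 for the small subunit and -0.37 for the large, beside -0.02 over all genes tested. Both medians rested on the settings. With a correction for GC content and gene length the small-subunit median was -0.0058, with 15 of 29 below 0. The large-subunit median was then -0.16, with 33 of 49 below 0. Without serum-starved replicate 3 the small-subunit median was -0.19 with 20 of 29, and the large-subunit median -0.33 with 40 of 49. Median transcript GC content was 47.6% in the small subunit and 52.3% in the large. A difference between the subunits was not tested. The genes with the smallest p were MRPL58, a peptidyl-tRNA hydrolase of the large subunit that frees stalled mitoribosomes, and MRPL46, a large-subunit protein without a bacterial counterpart. The stalk protein MRPL12, which also binds the mitochondrial RNA polymerase, came next. In bulk RNA, fewer cells with an mRNA and less of it per cell cannot be told apart.

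With edgeR (quasi-likelihood, p-values adjusted over all genes by Benjamini-Hochberg), 0 of the 78 members passed an adjusted p of 0.05, where 0.283% of all genes did (0.0436% with a fold change below 0). The smallest adjusted p among them was 0.282. DESeq2 called 0 members, where it called 1.11% of all genes, and limma-voom called 0, where it called 0.276%. At an unadjusted p under 0.05 there were 12 members, all with a fold change below 0, which is 15.4% of members against 4.37% of all genes. Of all genes, 6.01% met that limit above 0 and 10.4% in either direction. Of the 12 members, 2 were small-subunit and 10 large-subunit genes. In 19 members (5 small-subunit, 14 large-subunit), 24.4%, every serum-starved library lay below every FBS library, against 7.65% of all genes. In 0 members did the serum-starved libraries all lie above the others, against 10% of all genes. Members share the same 6 libraries and are not independent of each other, so these shares describe the group and are not a test of it.

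**Figure D1:**
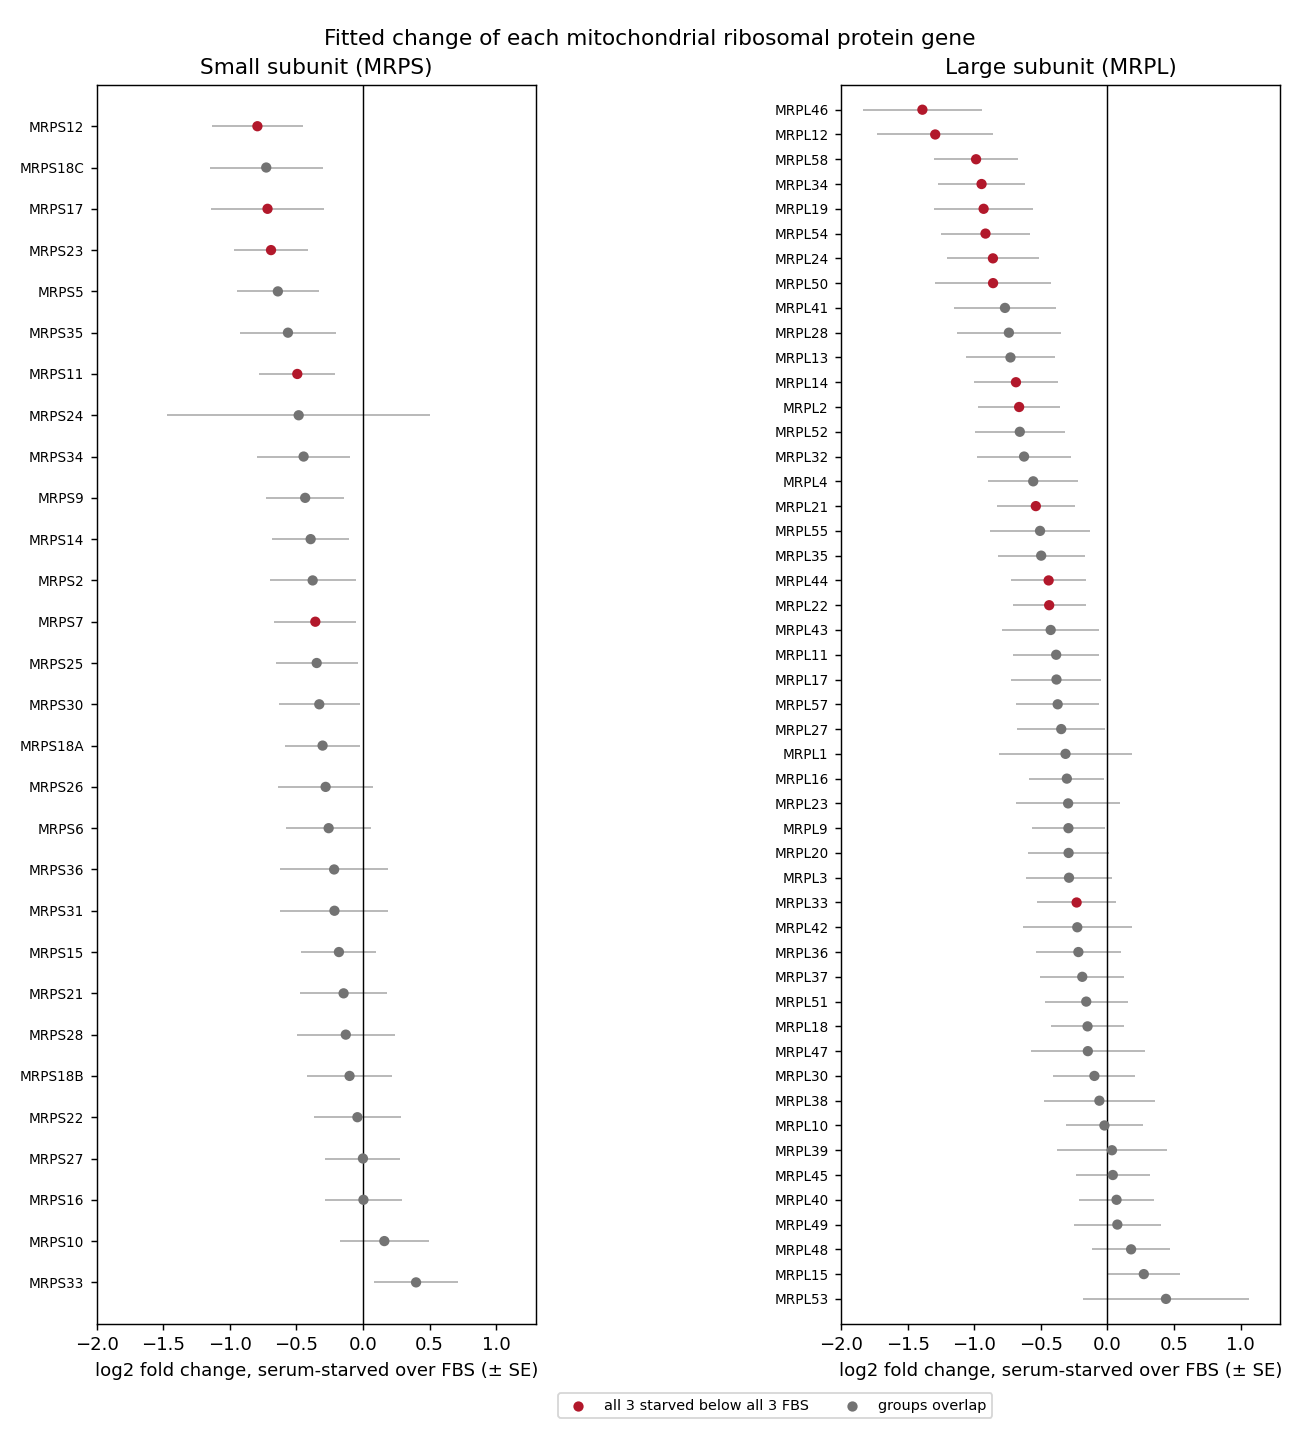
Fitted log2 fold change (x axis, serum-starved over FBS, bars are ± SE from edgeR) of each small-subunit gene (left) and large-subunit gene (right), with red points where all 3 serum-starved libraries lay below all 3 FBS libraries. Points lie left of 0 for 26 of 29 small-subunit and 42 of 49 large-subunit genes, and 0 of the 78 passed the test over all genes.

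Among large-subunit genes, MRPL58 (chromosome 17, 75012670 to 75021261, GRCh38) stood at 50.7, 48.8 and 24.97 CPM in serum-starved cells, against 91.9, 73.3 and 81.2 CPM in cells with FBS. The groups did not overlap, and serum-starved replicate 3 was the lowest library (log2 fold change -0.99 ± 0.31 SE, with an edgeR adjusted p = 0.282). MRPL46 (chromosome 15, 88459476 to 88467419) was measured at 3.60, 4.12 and 2.25 CPM in serum-starved cells, against 9.65, 11.3 and 5.07 CPM in cells with FBS, again without overlap (log2 fold change -1.39 ± 0.45 SE, with an edgeR adjusted p = 0.289). It was a low gene, and FBS replicate 3 was closer to the serum-starved libraries than to the other FBS libraries. MRPL12 (chromosome 17, 81703357 to 81707526) had 35.3, 37.4 and 8.72 CPM in serum-starved cells, against 76.6, 83.8 and 38.9 CPM in cells with FBS. Serum-starved replicates 1 and 2 lay just below FBS replicate 3, and serum-starved replicate 3 far below both (log2 fold change -1.29 ± 0.43 SE, with an edgeR adjusted p = 0.31).

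MRPL34, a small protein of the bacterial type, had 33.0, 34.4 and 15.1 CPM in serum-starved cells, against 58.5, 51.3 and 48.9 CPM in cells with FBS, with the groups apart (log2 fold change -0.95 ± 0.33 SE, with an edgeR adjusted p = 0.321). MRPL19, also of the bacterial type, had 7.48, 9.06 and 15.8 CPM in serum-starved cells, against 27.3, 18.5 and 16.0 CPM in cells with FBS. Here serum-starved replicate 3 was the highest of its group and almost level with FBS replicate 3, unlike in the 4 genes before it (log2 fold change -0.93 ± 0.37 SE, with an edgeR adjusted p = 0.397). The other large-subunit genes with an unadjusted p under 0.05 were MRPL54, MRPL24, MRPL13, MRPL14 and MRPL2, with log2 fold changes of -0.92, -0.86, -0.73, -0.69 and -0.66. MRPL50, MRPL21, MRPL44, MRPL22, MRPL33 and, in the small subunit, MRPS7 also had groups that did not overlap. These genes, apart from MRPL44, are named here because of their values. With the GC and length correction, MRPL50, MRPL21, MRPL44, MRPL22, MRPL33 and MRPS7 had log2 fold changes of 0.09, -0.55, -0.01, -0.01, 0.40 and -0.36.

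At the other end of the large subunit, MRPL15 had 86.8, 108 and 111 CPM in serum-starved cells, against 88.1, 82.6 and 82.8 CPM in cells with FBS, the largest fold change above 0 among large-subunit genes with a mean of at least 5 CPM (log2 fold change 0.27 ± 0.27 SE, with an edgeR adjusted p = 0.783). The groups overlapped, since serum-starved replicate 1 lay below FBS replicate 1. MRPL48, MRPL49, MRPL40 and MRPL45 lay between 0.04 and 0.18. MRPL45, which lies at the tunnel exit and helps hold the ribosome at the inner membrane, was at 64.4 ± 9.10 CPM in serum-starved cells and 62.6 ± 10.03 CPM in cells with FBS (SD, n = 3 each). Among the genes fixed for their role, MRPL10 and MRPL11, the base of the stalk that carries MRPL12, had log2 fold changes of -0.02 and -0.38. MRPL3, near the peptidyl transferase centre, and MRPL44, which has an RNase III-like fold, had -0.29 and -0.44. MRPL44 was at 26.6, 33.9 and 30.3 CPM in serum-starved cells, against 42.6, 37.8 and 42.9 CPM in cells with FBS, a small difference without overlap. With the GC and length correction its log2 fold change was -0.01.

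Among small-subunit genes, MRPS12, the counterpart of the bacterial decoding protein S12, had the lowest fold change. MRPS12 (chromosome 19, 38930548 to 38933162) stood at 136, 127 and 54.1 CPM in serum-starved cells, against 155, 209 and 184 CPM in cells with FBS. The groups were apart, with serum-starved replicate 3 far below the others of its group (log2 fold change -0.79 ± 0.34 SE, with an edgeR adjusted p = 0.422). MRPS23 (chromosome 17, 57834781 to 57850056), a protein gained in mitochondria, had 73.1, 89.7 and 65.8 CPM in serum-starved cells, against 138, 112 and 119 CPM in cells with FBS. All 3 serum-starved libraries lay below the lowest FBS library (log2 fold change -0.69 ± 0.28 SE, with an edgeR adjusted p = 0.397).

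MRPS18C, MRPS17 and MRPS5, all of the bacterial type, had log2 fold changes of -0.73, -0.72 and -0.64. MRPS17 was low, at 3.60, 4.94 and 2.99 CPM in serum-starved cells, against 5.44, 7.03 and 6.50 CPM in cells with FBS, with the groups just apart. MRPS11, an rRNA-binding protein of the platform, was at 47.2, 39.6 and 29.4 CPM in serum-starved cells, against 52.2, 59.2 and 52.2 CPM in cells with FBS, also apart (log2 fold change -0.49 ± 0.29 SE, with an edgeR adjusted p = 0.572). MRPS33, gained in mitochondria, had the highest small-subunit fold change, with 24.5, 22.8 and 29.4 CPM in serum-starved cells, against 24.6, 17.8 and 15.7 CPM in cells with FBS (log2 fold change 0.40 ± 0.31 SE, with an edgeR adjusted p = 0.717). FBS replicate 1 stood at the level of serum-starved replicate 1, so the groups overlapped. MRPS10, MRPS16, MRPS27 and MRPS22 lay between -0.04 and 0.16. MRPS27, a pentatricopeptide-repeat protein, was at 144 ± 15.03 CPM in serum-starved cells and 144 ± 22.1 CPM in cells with FBS (SD, n = 3 each).

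**Figure D2:**
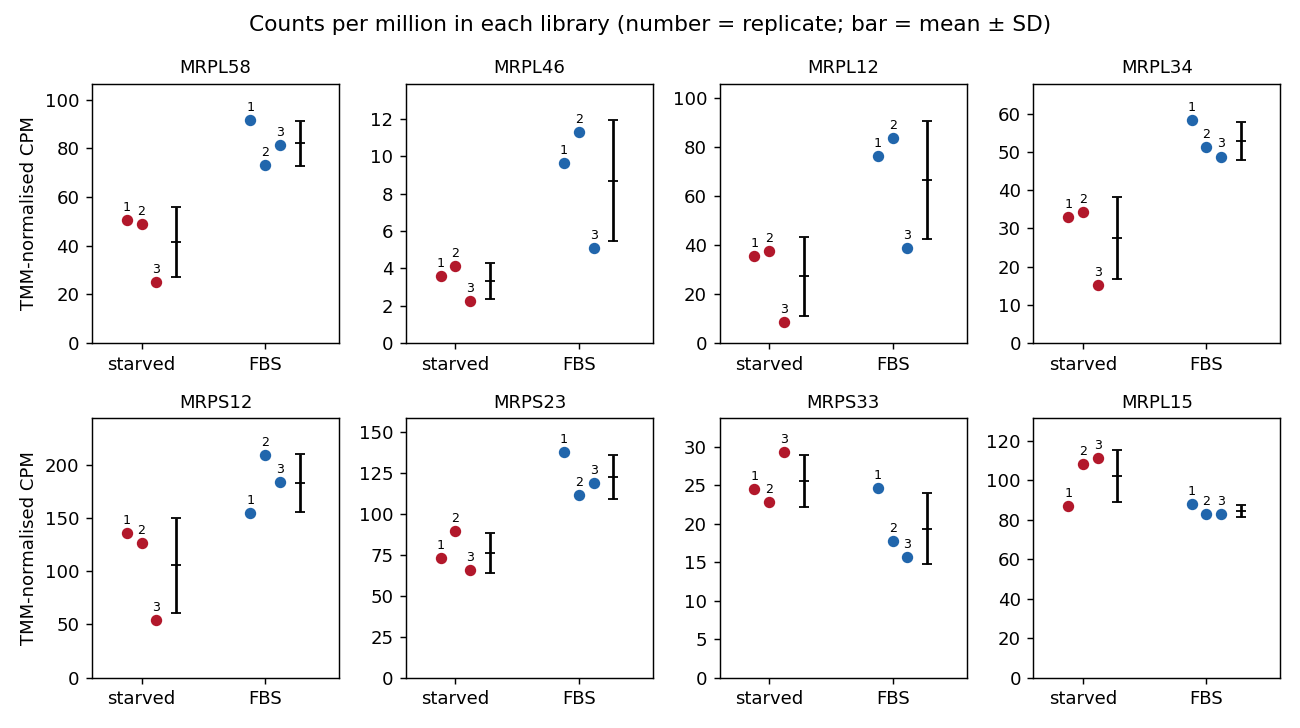
TMM-normalised CPM (y axis, from 0) in each library of 8 members, with serum-starved libraries in red and FBS libraries in blue, replicate numbers beside the points, and the mean ± SD (n = 3) as a black bar. Serum-starved replicate 3 is the lowest point for MRPL58, MRPL46, MRPL12, MRPL34, MRPS12 and MRPS23 and the highest for MRPS33 and MRPL15.

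MRPL46 and MRPS11 lie head to head on chromosome 15, with annotated starts 34 bases apart, 1 in each subunit. Both stood without overlap below the FBS libraries, at log2 fold changes of -1.39 and -0.49. In all, 18 members had such a divergent neighbour, and the pairs did not all share a direction. MRPL13 had -0.73 beside -0.70 for MTBP, while MRPS34 had -0.45 beside 0.32 for EME2. A link between neighbours was not tested. RefSeq promoter windows (GRCh38.p14, from 250 bases before to 50 after the start) matched 69 of the 78 members. In them the letters CCGGAAG, the core bound by ETS factors such as GABPA, were found on either strand in 29 members, 42.0%, against 10.7% of all 27305 windows and 19.6% of those of tested protein-coding genes. The YY1-type letters AANATGGCG were in 18 members, 26.1%, against 3.37% and 7.09%. The motif of NRF1 (GCGC, A, any base, GCGC), a regulator of nuclear genes for mitochondria, was in 8 (11.6%, against 6.28% and 11.9%), the E-box CACGTG in 6 (8.70%, against 7.43% and 10.2%) and CCAAT in 20 (28.99%, against 35.7% and 36.3%). The 5 motifs do not contain each other. Members with and without the ETS letters had median log2 fold changes of -0.28 and -0.39, and those with and without the YY1 letters -0.32 and -0.36. A match is a description of letters, not of a bound site.

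The 250 bases before the RefSeq start are shown for the pair with the smallest p in each subunit, chosen after the values were seen, so that their promoters can be compared, 5′ to 3′ on the strand of the gene. Capitals mark matches to any of the 5 motifs on either strand. They are MRPL58 (chr17:75012420-75012669, plus strand) and MRPL46 (chr15:88467389-88467638, minus strand) of the large subunit, and MRPS12 (chr19:38930694-38930943, plus strand) and MRPS23 (chr17:57850045-57850294, minus strand) of the small.
MRPL58: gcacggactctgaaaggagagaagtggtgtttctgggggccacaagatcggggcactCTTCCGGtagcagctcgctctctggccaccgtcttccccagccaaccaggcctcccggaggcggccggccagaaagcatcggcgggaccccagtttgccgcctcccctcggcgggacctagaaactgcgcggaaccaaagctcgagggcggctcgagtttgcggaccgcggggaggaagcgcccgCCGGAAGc
MRPL46: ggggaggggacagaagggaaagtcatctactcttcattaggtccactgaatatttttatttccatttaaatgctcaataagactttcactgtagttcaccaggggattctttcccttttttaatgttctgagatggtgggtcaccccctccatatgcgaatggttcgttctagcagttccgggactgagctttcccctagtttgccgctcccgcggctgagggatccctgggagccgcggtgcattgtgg
MRPS12: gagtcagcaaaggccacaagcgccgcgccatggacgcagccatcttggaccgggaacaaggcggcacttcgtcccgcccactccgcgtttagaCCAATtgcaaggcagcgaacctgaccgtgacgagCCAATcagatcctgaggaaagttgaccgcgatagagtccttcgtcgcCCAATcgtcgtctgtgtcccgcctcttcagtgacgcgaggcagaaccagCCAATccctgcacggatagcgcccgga
MRPS23: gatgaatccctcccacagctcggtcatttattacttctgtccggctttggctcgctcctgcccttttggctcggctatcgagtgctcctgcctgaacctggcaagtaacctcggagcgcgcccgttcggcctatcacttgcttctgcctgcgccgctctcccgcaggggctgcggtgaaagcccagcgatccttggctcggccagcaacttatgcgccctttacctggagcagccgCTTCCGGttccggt
In these stretches MRPL58 holds 2 ETS matches, MRPS12 holds 4 CCAAT boxes and MRPS23 holds 1 ETS match close to the start. The windows searched run on past the start: MRPS12 also has an ETS match that begins 5 bases before the start and runs across it, so that its letters are cut off at the end of the printed stretch and not in capitals. MRPL46 has a YY1 match that begins 8 bases after the first base of the gene, and none in the printed stretch. The start of MRPS11 in the deposited coordinates lies within the MRPL46 stretch on the other strand.

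By origin, 29 of 30 large-subunit genes with a bacterial counterpart had a fold change below 0 (median -0.38), and 13 of 19 without one (median -0.23). In the small subunit these were 14 of 16 with a counterpart (median -0.39) and 9 of 10 without (median -0.25). With the GC and length correction, the large-subunit classes had 23 of 30 (median -0.26) and 10 of 19 (median -0.01) below 0. The small-subunit classes then had 9 of 16 (median -0.07) and 5 of 10 (median -0.03). A difference between these classes was not tested. The 3 relatives of bacterial S18 had log2 fold changes of -0.30 (MRPS18A, in the large subunit), -0.10 (MRPS18B, in the small subunit) and -0.73 (MRPS18C, the direct counterpart). MRPS30 had -0.33. MRPS36, which is no part of the ribosome, had -0.22.

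Summed over the 29 small-subunit genes, the level was 2567, 2274 and 1535 CPM in serum-starved cells, against 2603, 2642 and 2633 CPM in cells with FBS. Over the 49 large-subunit genes it was 4496, 3846 and 2551 CPM, against 4563, 5046 and 4679 CPM. Both sums were lowest in serum-starved replicate 3, and serum-starved replicate 1 lay just below the lowest FBS library in both. The ratio of the large-subunit to the small-subunit sum was 1.75, 1.69 and 1.66 in serum-starved cells, against 1.75, 1.91 and 1.78 with FBS.

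Much of the spread lay within the serum-starved group. Serum-starved replicate 3 was the lowest of all 6 libraries in 51 of 78 members. The median log2 deviation of the members from their own mean over the 6 libraries was 0.05, -0.05 and -0.55 (small subunit) and 0.04, -0.11 and -0.50 (large subunit) in serum-starved cells. With FBS it was 0.22, 0.17 and 0.18 and 0.26, 0.22 and 0.16. The median fold change of all members was -0.35 with all libraries and -0.22 without serum-starved replicate 3, where 60 of 78 stood below 0 (against 50.6% of all genes). In that fit 1 member passed, MRPL13, a protein of the bacterial type, where 1.81% of all genes passed, 0.938% with a fold change below 0. MRPL13 was at 19.6, 27.6 and 47.9 CPM in serum-starved cells, against 66.2, 46.8 and 44.7 CPM in cells with FBS. Serum-starved replicates 1 and 2 lay below all FBS libraries while replicate 3 overlapped them. Its log2 fold change was -1.16 (SE 0.28, edgeR adjusted p = 0.0341) without that library and -0.73 (SE 0.34, edgeR adjusted p = 0.464) with it. With all libraries and the GC and length correction it was -0.21 (SE 0.20, edgeR adjusted p = 0.645). The transcript GC content of MRPL13 was 39.0%.

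The level of members in single libraries varied with the base composition of the genes. Transcript GC content of the members ran from 35.0% (MRPL50) to 71.9% (MRPL41), with a median of 50.3%, beside 50.7% over all genes tested. Of the 39 members above the median, serum-starved replicate 3 was the lowest of its group in 37. Of the 39 at or below it, replicate 3 was lowest in 17, replicate 1 in 16 and replicate 2 in 6. The median log2 deviation of the GC-richer members was 0.23, -0.06 and -0.98 in serum-starved cells, against 0.20, 0.31 and 0.24 with FBS. That of the GC-poorer members was -0.23, -0.10 and 0.03, against 0.30, 0.04 and 0.06. GC-rich MRPL41 had 213, 151 and 58.8 CPM in serum-starved cells, against 253, 276 and 192 CPM in cells with FBS, whereas GC-poor MRPL3 had 52.0, 76.3 and 126 CPM in serum-starved cells, against 109, 101 and 101 CPM in cells with FBS. Serum-starved replicate 3 was thus the lowest library for MRPL41 and the highest for MRPL3.

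Across the 78 members, which share these libraries, Spearman's rho between GC content and the deviation was 0.64, 0.33 and -0.78 in serum-starved replicates 1, 2 and 3 and -0.30, 0.54 and 0.39 in the FBS replicates. Across all genes with a known GC content it was 0.61, 0.30 and -0.40 and -0.55, 0.17 and 0.03. These are descriptions across genes. After GC content and length were corrected for in each library, with trends fitted over all genes, the median log2 fold change was -0.0058 for the small subunit and -0.16 for the large, and 15 of 29 and 33 of 49 stood below 0 (against 49% of all genes). No member passed, at a smallest edgeR adjusted p of 0.0551, where 0.835% of all genes did. At an unadjusted p under 0.05 there were 19 members below 0, 24.4% against 7.49% of all genes, and 4 above, where 8.48% of all genes were. Of the 39 GC-richer members, 16 (41.0%) met that limit below 0 and 0 above. Of the 39 GC-poorer members, 3 (7.69%) met it below 0 and 4 above. Among the leading genes, MRPL12 had -1.32 (SE 0.30, edgeR adjusted p = 0.0563), MRPL54 -0.85, MRPL34 -0.90 and MRPL58 -0.82. MRPS12 had -0.80 and MRPS23 -0.80. GC-poor MRPL50 had 0.09, against -0.86 without the correction. After correction the GC-richer members had a median of -0.42 and the GC-poorer ones of 0.09, against -0.38 and -0.26 before it. Spearman's rho between GC content and fold change across the members was -0.22 before the correction and -0.64 after it. The corrected values of the members thus still varied with GC content. Over all genes this rho was 0.29 before the correction. With the replicate number added to that correction, MRPL12 passed (edgeR adjusted p = 0.00985), where 1.05% of all genes did. Without a low-count filter it also passed (edgeR adjusted p = 0.0198), where 0.541% did. The part of base composition in the differences between the groups was not tested.

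**Figure D3:**
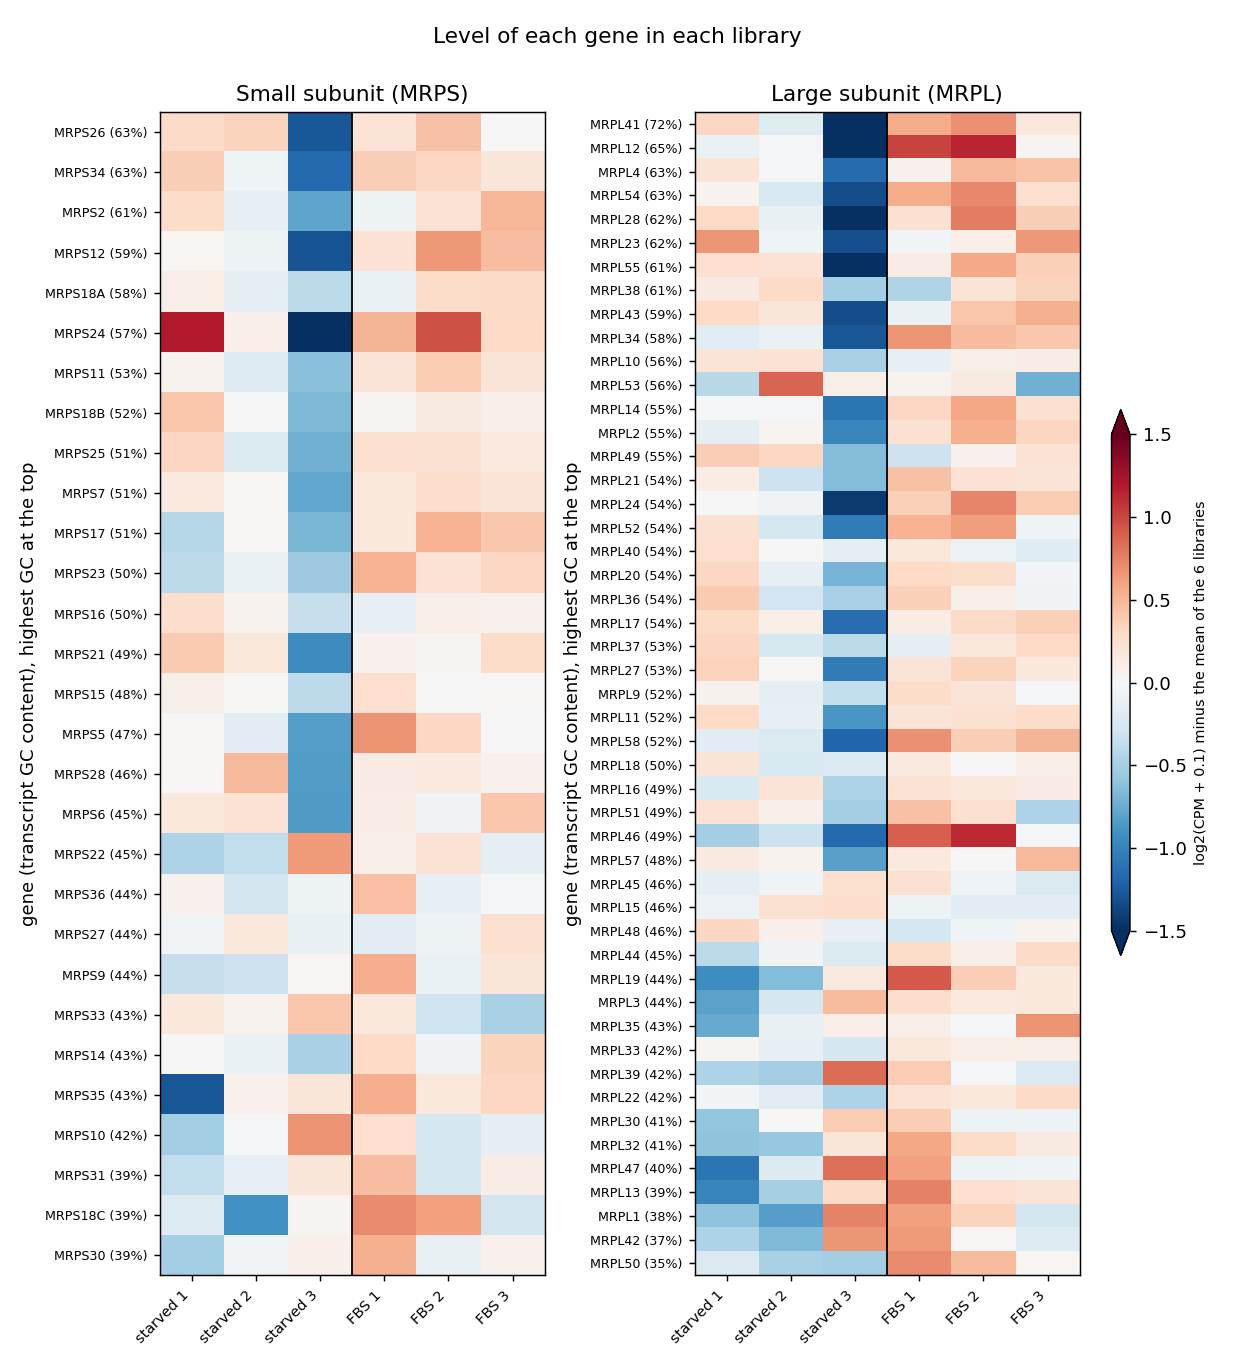
Level of each member in each library as log2(CPM + 0.1) minus its mean over the 6 libraries (colour, red high, blue low, clipped at the ends of the scale), with genes ordered from the highest to the lowest GC content and serum-starved libraries left of the black line. Serum-starved replicate 3 is blue for most GC-rich genes and pale or red for many GC-poor ones, and replicate 1 runs the other way.

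**Figure D4:**
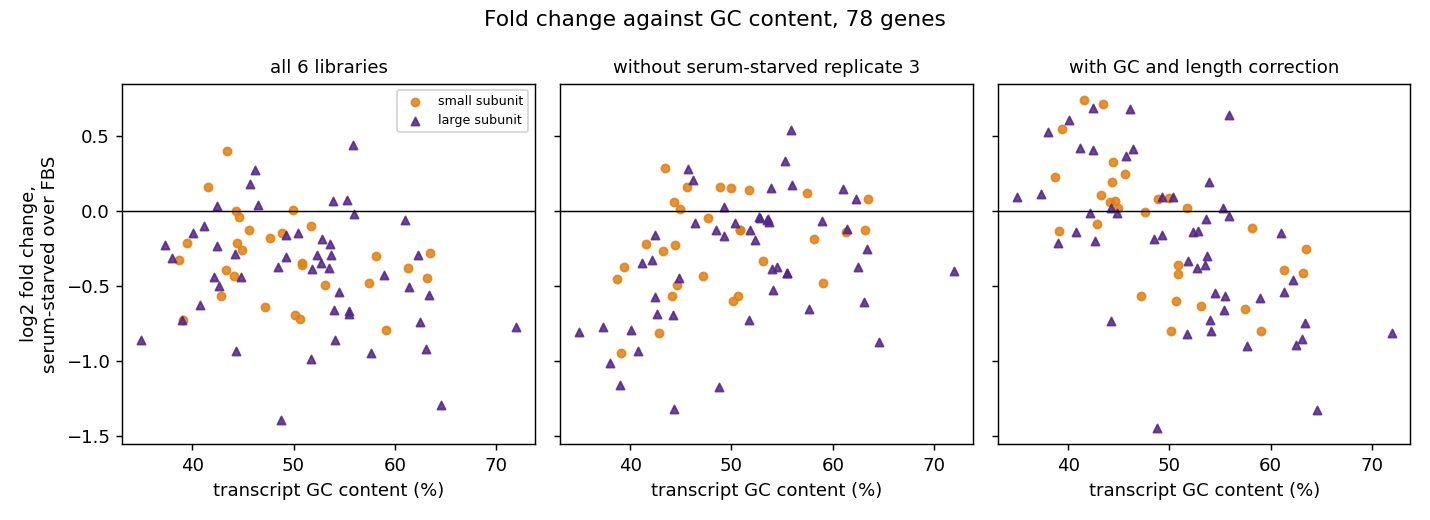
Log2 fold change (y axis, serum-starved over FBS) against transcript GC content (x axis, percent) for the 78 members, small subunit as orange circles and large subunit as purple triangles, in the fit with all libraries, without serum-starved replicate 3 and with the GC and length correction. Spearman's rho across the members is -0.22 with all libraries, 0.34 without serum-starved replicate 3 and -0.64 with the correction.

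Per-length levels were compared on the deposited FPKM scale, in which counts are divided by gene length. The highest small-subunit genes were MRPS34, at 230.2 ± 110.2 FPKM in serum-starved cells and 313 ± 18.3 FPKM in cells with FBS, MRPS18B and MRPS2, and the lowest were MRPS18C and MRPS24 (SD, n = 3 each). The highest large-subunit genes were MRPL37, at 195 ± 55.0 FPKM in serum-starved cells and 222 ± 35.6 FPKM in cells with FBS, MRPL41 and MRPL28, and the lowest were MRPL46 and MRPL42. The deposited length of MRPL42 is 16393 bases. By CPM, which is not divided by length, its mean of 11.9 over the 6 libraries was above that of MRPL53, at 1.68. The median over members of the mean FPKM in the 6 libraries was 14.0 for the small subunit and 31.6 for the large, and the quartiles lay between 6.36 and 39.0 for the small subunit and between 10.6 and 42.2 for the large. MRPS24, the counterpart of bacterial S3, had 26, 14 and 0 counts in serum-starved cells and 21, 25 and 14 counts in cells with FBS. The count of 0 in serum-starved replicate 3 allows up to 0.132 CPM, counting error only. The gene overlaps, on the same strand, the read-through gene URGCP-MRPS24, which was listed at 0 counts.

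**Figure D5:**
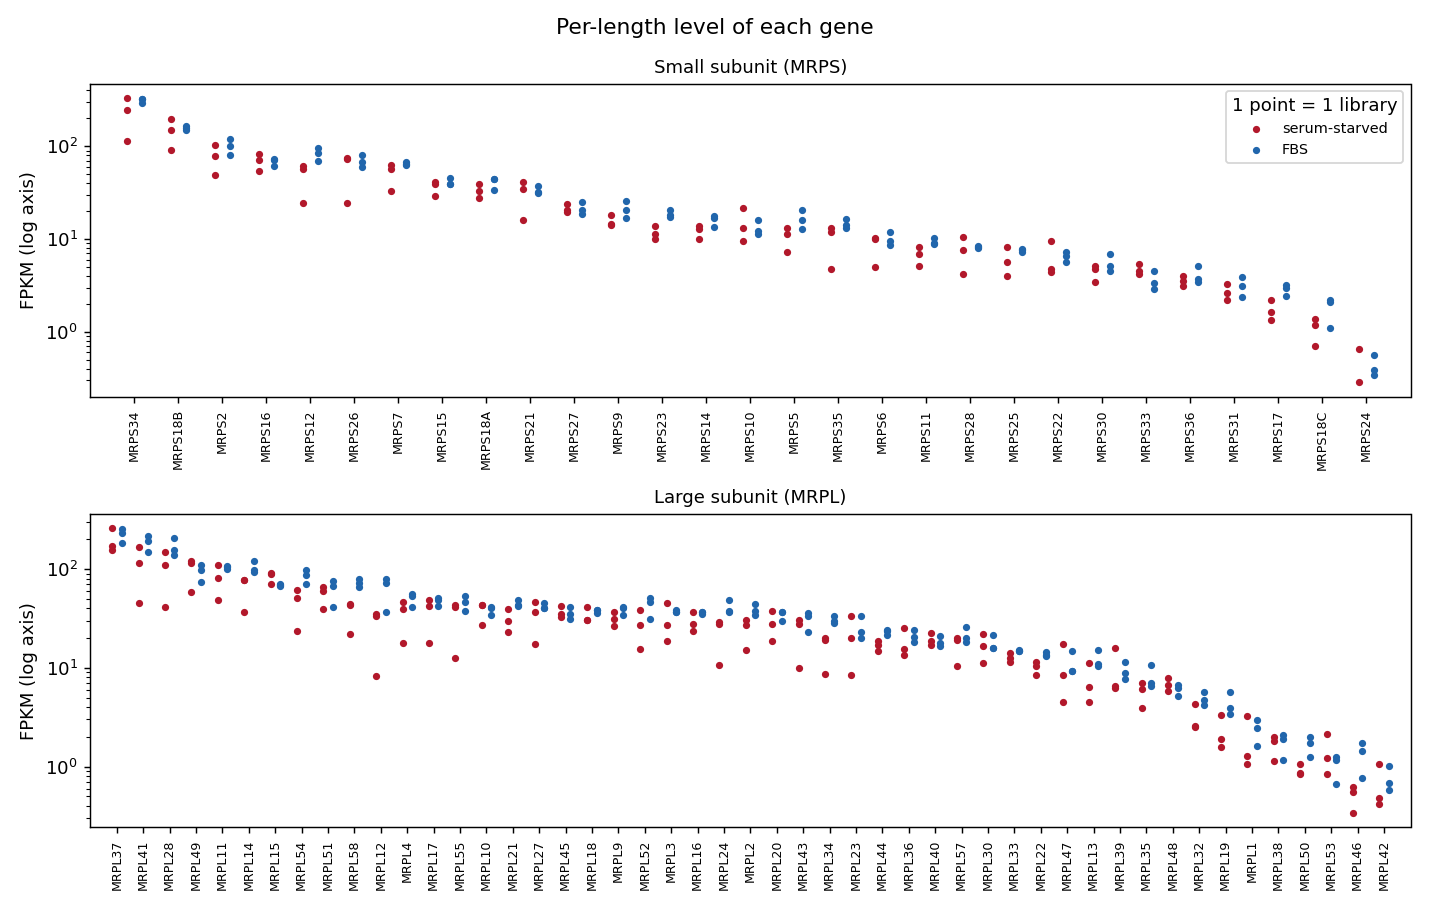
FPKM (log axis) of each member in each of the 3 serum-starved (red) and 3 FBS (blue) libraries, with genes in the order of their mean over the 6 libraries. MRPS34 and MRPL37 are the highest of their subunits, and the 0 of MRPS24 in serum-starved replicate 3 has no point on this axis.

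Because counting by strand is not stated, reads of a member and of a gene that overlaps it on the other strand cannot be told apart. Of the 78 members, 49 overlap another annotated gene and 38 a protein-coding one. MRPL49 overlaps FAU, which had 90441 counts over the 6 libraries beside 31560 for MRPL49. Like MRPS24, the genes MRPL46, MRPL12, MRPL38, MRPS17 and MRPS28 overlap, on the same strand, a protein-coding gene listed at 0 counts. Whether reads shared with such genes went uncounted was not tested. Of the 75 annotated MRPS and MRPL pseudogenes, 1 passed the filter on low counts, MRPL45P2, with 138 counts beside 6947 for MRPL45. Together they held 0.0427% of the counts of members and pseudogenes.

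The rest of the mitochondrial translation system was counted the same way. All 5 mitoribosome proteins not named MRP had a fold change below 0 (median -0.39), from -0.61 for AURKAIP1 to -0.06 for GADD45GIP1. Of 17 factors of mitochondrial translation, 12 stood below 0 (median -0.28). The elongation factor GFM1 was lowest (log2 fold change -0.75 ± 0.34 SE, with an edgeR adjusted p = 0.457) and the RNA-binding protein SLIRP highest (0.33). Of 24 assembly and rRNA modification factors, 19 stood below 0 (median -0.16), from -1.19 for MTERF3, which acts in large-subunit assembly, to 0.57 for FASTKD2, which binds the large rRNA. Both were low genes. MTERF3 had 0.34, 2.58 and 2.42 CPM in serum-starved cells, against 6.20, 3.10 and 2.99 CPM with FBS. FASTKD2 had 2.79, 3.02 and 11.1 CPM, against 5.18, 3.93 and 2.34 CPM, and -0.40 without serum-starved replicate 3. Of 11 tested regulators of mitochondrial gene expression, 8 stood below 0 (median -0.11). TFAM, which packages mitochondrial DNA and starts its transcription, had 6.32, 14.8 and 19.6 CPM in serum-starved cells, against 37.5, 22.5 and 16.0 CPM in cells with FBS (log2 fold change -0.90 ± 0.41 SE, with an edgeR adjusted p = 0.46), and PPARGC1B, a coactivator, the highest fold change (0.48). PPARGC1A was below the filter. None of the members of these 4 lists passed. Without serum-starved replicate 3 the medians of the 4 lists, in the same order, were -0.30, -0.28, -0.02 and -0.03. In that fit 4 of 5, 12 of 17, 12 of 24 and 6 of 11 stood below 0. With the GC and length correction the medians were -0.03, -0.17, -0.26 and -0.11, with 3 of 5, 9 of 17, 18 of 24 and 7 of 11 below 0.

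The rRNA partners of these proteins, encoded in the mitochondrial genome, had fold changes above 0, and whether MT-RNR2 passed depended on the tool and the correction. MT-RNR2, the large-subunit rRNA, stood at 2854, 811 and 3184 CPM in serum-starved cells, against 865, 612 and 897 CPM in cells with FBS, with serum-starved replicate 2 within the FBS range. Its log2 fold change was 1.53 with SE 0.43 (edgeR adjusted p = 0.214). In DESeq2 it passed (adjusted p = 0.0244). MT-RNR1, the small-subunit rRNA, had a log2 fold change of 1.35 (edgeR adjusted p = 0.256) and missed the threshold in DESeq2 (adjusted p = 0.0517). Corrected for GC content and length, MT-RNR2 passed, at 2.18 (edgeR adjusted p = 0.0274), and MT-RNR1 did not, at 1.86 (edgeR adjusted p = 0.0509). All counts on the mitochondrial genome made up 4.87%, 2.497% and 4.37% of serum-starved libraries, against 1.76%, 1.79% and 2.68% of FBS libraries. Whether poly(A) RNA was selected or rRNA was removed before sequencing is not in the labels. The part of such a step in these rRNA levels was not tested.

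Beside the mitochondrial ribosomal proteins, 59 of 81 tested cytosolic ribosomal protein genes had a fold change below 0 (median -0.19), and 64 of 81 tested nuclear genes of the respiratory chain and ATP synthase (median -0.25). Without serum-starved replicate 3 the medians were -0.22 for the mitochondrial ribosomal proteins, 0.02 for the cytosolic and -0.12 for the respiratory chain. With the GC and length correction they were -0.13, -0.10 and -0.09. A difference between the lists was not tested.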

How the data were processed

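RNA was measured in 3 serum-starved and 3 FBS libraries of Ovcar8, grouped by the treatment label, with replicate numbers from the titles. Per the labels' protocols, RNA was extracted with Trizol, cleaned on a column with DNase, and sequenced on a NovaSeq instrument after preparation with a NEBNext Ultra kit. The submitters' processing notes name GRCh38, STAR 2.6.1 and DESeq2, with no roles; the sources used here do not give the counting tool or its strand setting. The authors deposited raw counts per gene, all whole numbers, and FPKM values per gene, with coordinates and gene lengths per the file headers.

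Genes were kept by filterByExpr (minimum count 10, minimum total 15), which left 13772 with all 78 members. Groups were compared on the counts with edgeR 4.0.16 in R 4.3.3 (TMM scaling, robust glmQLFit, then glmQLFTest), two-sided, with Benjamini-Hochberg adjustment over all genes. The SE is the log2 fold change over the square root of F. GC content is the mean over GENCODE 29 transcripts, and the correction used splines with 5 degrees of freedom in GC content and log length, entered as offsets. Alternatives were other scalings, filters and tools (DESeq2 1.42.0, limma 3.58.1 with voom or on FPKM), a replicate block, thresholds and each library left out. The edgeR, replicate block, GC and length correction, voom and DESeq2 fits were run on simulated counts with known changes. Those counts were drawn gene by gene and held no trend of a library with GC content or length. They cannot show how well the correction removes such a trend.

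The members, lists, alternatives and the rule for named genes were chosen with earlier results of these data known. The rule took members that passed, the 5 largest and 5 smallest log2 fold changes per subunit at a mean of at least 5 CPM, the 3 highest and 2 lowest FPKM means per subunit, 15 members fixed for their role, the 3 smallest p per subunit among members without overlap, and, per list, passing members and both extremes. Further members are named because of their values. Floors cover counting error only.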

Additional observations from a re-analysis of the deposited data

How the results depend on the processing

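No member passed with all libraries and the chosen settings, and in the alternatives 0 small-subunit members passed. In the large subunit 1 passed without a low-count filter (MRPL12), 1 with the replicate block and GC and length correction together (MRPL12, adjusted p = 0.00985) and 1 without serum-starved replicate 3 (MRPL13), so that over the 6 fits without a library the number ran from 0 to 1; every other setting gave 0. The number of genes called over all genes was 39, and 25 with total counts, 127 without a filter, 154 in DESeq2, 115 with the GC and length correction, 145 with that and the replicate block, 22 and 19 in limma on log2(FPKM + 1) and log2(FPKM + 0.1), 0 on unfiltered FPKM, 13 at 0.01, 70 at 0.1, and 4 to 257 with a library left out (65, 16 and 257 without serum-starved replicates 1, 2 and 3, and 4, 14 and 20 without FBS replicates 1, 2 and 3). The small-subunit median was -0.0058 with the GC and length correction and -0.10 with that and the block; leaving out a library it ran from -0.40 to -0.19, and the large-subunit median from -0.51 to -0.33. 

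Same-numbered libraries correlated at -0.26, 0.10 and -0.08 in their deviations from the group means. These deviations were not corrected for GC content, so they cannot decide whether such libraries share more than a number. The replicate block gave 43 calls over all genes, 0 among members, and medians of -0.40 and -0.45. Only serum-starved replicate 2 correlated best with its own number. Serum-starved replicate 1 correlated best with FBS replicate 2 (0.19), and serum-starved replicate 3 with FBS replicate 1 (0.26).

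Of the 78 members, 20 turned sign with the GC and length correction and 14 without serum-starved replicate 3, and not all were near 0: MRPL50 had -0.86 and 0.09 with the correction, and MRPS9 -0.43 and 0.06. The lists that follow cover only the genes named by the rule. After that correction their log2 fold changes were MRPS22 0.0686, MRPS27 0.19, MRPS18B 0.0209, MRPL42 0.11, MRPL3 0.0211, MRPS30 0.22, MRPS36 0.33, GADD45GIP1 0.0388, and with that and the block MRPS22 0.0616, MRPS27 0.17, MRPL42 0.0991, MRPS30 0.21, MRPS36 0.30, GADD45GIP1 0.00298. With total counts they were MRPS22 0.0159, MRPS27 0.00727, MRPS16 -0.0196, with RLE MRPS27 0.00143, with the stricter filter MRPS27 0.00346, without a filter MRPS16 -0.00947, in voom MRPS27 0.00539, MRPS16 -0.013, with the block MRPS27 0.00588, MRPS16 -0.0147, on log2(FPKM + 1) MRPS27 0.00439, MRPS16 -0.0148 (also unfiltered), and on log2(FPKM + 0.1) MRPS27 0.00484, MRPS16 -0.0152. With a library left out, the ranges of these named genes that crossed 0 were MRPS22 -0.49 to 0.18, MRPS27 -0.0933 to 0.14, MRPS16 -0.13 to 0.15, MRPS10 -0.22 to 0.42, MRPS18B -0.36 to 0.14, MRPS24 -1.61 to 0.12, MRPL45 -0.0829 to 0.17, MRPL40 -0.0332 to 0.17, MRPL49 -0.0828 to 0.33, MRPL42 -0.77 to 0.0504, MRPL10 -0.14 to 0.17, GADD45GIP1 -0.42 to 0.11, FASTKD2 -0.40 to 0.91. The cause was not tested.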
